A study of Mus musculus with 18 samples.

Results

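The libraries compared here come from wild-type mice and carry the replicate numbers 1 to 3 in 2 groups of the series: model, given a treatment labelled Coll IV, and intervene, given Coll IV together with remodelin. They are 6 of 18 libraries, 3 per group, all labelled as thalamus. They were chosen by their numbers because the thalamic content of both groups is similar among these numbers, so expression of thalamic genes in these libraries took part in the choice and is described here without a test. The comparison asks what remodelin did to transcripts of animals that had received Coll IV, in a series about inflammation-related genes and thalamic haemorrhage. Saline controls with the same numbers, and the libraries numbered 4 to 6, appear only for reference. The labels expand neither Coll IV nor the time of sampling, the age, or the sex, and they do not say whether each library is a separate animal, so p-values cover the variation among these samples, which may be technical.

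Remodelin is described as an inhibitor of NAT10, an acetyltransferase that places N4-acetylcytidine on RNA. Neither NAT10 activity nor this RNA mark was measured in the libraries. Injured brain tissue responds on several levels that RNA-seq of whole tissue can register. Neurons and glia switch on immediate early genes within a short time of stimulation, interferons induce antiviral genes in most cell types, and pericytes, smooth muscle cells and fibroblasts of the vessel wall supply contractile proteins and matrix.

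The 6 libraries held 29277921 to 33773652 counts, and 18031 of 50559 genes had enough counts to be tested. Levels are given as CPM, counts scaled to a common library size with a correction for library composition (TMM), and a difference is a log2 fold change of intervene over model with its standard error (SE). The tissue label was checked against markers. Tcf7l2, a transcription factor of thalamic neurons, was 53.9, 147 and 73.2 CPM in model replicates 1 to 3 and 96.9, 92.1 and 61.7 CPM in intervene. Markers of neighbouring regions were present too. Slc17a7, the vesicular glutamate transporter of cortex and hippocampus, ranged from 420.0 to 865 CPM in model and from 283 to 704 CPM in intervene.

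Intervene replicate 2 stood apart from the other intervene libraries in tissue around the ventricles. Ttr, the thyroid hormone carrier made by choroid plexus, was 3211, 5550 and 4329 CPM in model and 568, 10146 and 65.2 CPM in intervene. The mean log2 CPM of 14 choroid plexus genes was 4.34, 4.76 and 4.56 in model against 2.11, 5.70 and 1.34 in intervene. For 12 ependymal genes, those of the ciliated lining of the ventricles, it was 3.54, 3.70 and 3.36 against 1.77, 3.99 and 2.01, and for 10 habenula genes 4.15, 4.35 and 4.25 against 2.94, 4.38 and 2.91. In each of these lists intervene replicates 1 and 3 lay below all model libraries and intervene replicate 2 above them. The first principal component of log2 CPM, with 39.6% of the variance, put intervene replicate 2 at -37.4 beside model replicate 1 at -38.4, and intervene replicates 1 and 3 at 47.7 and 34.5. Each list median of intervene over model in these libraries is therefore also given without intervene replicate 2.

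**Figure D1:**
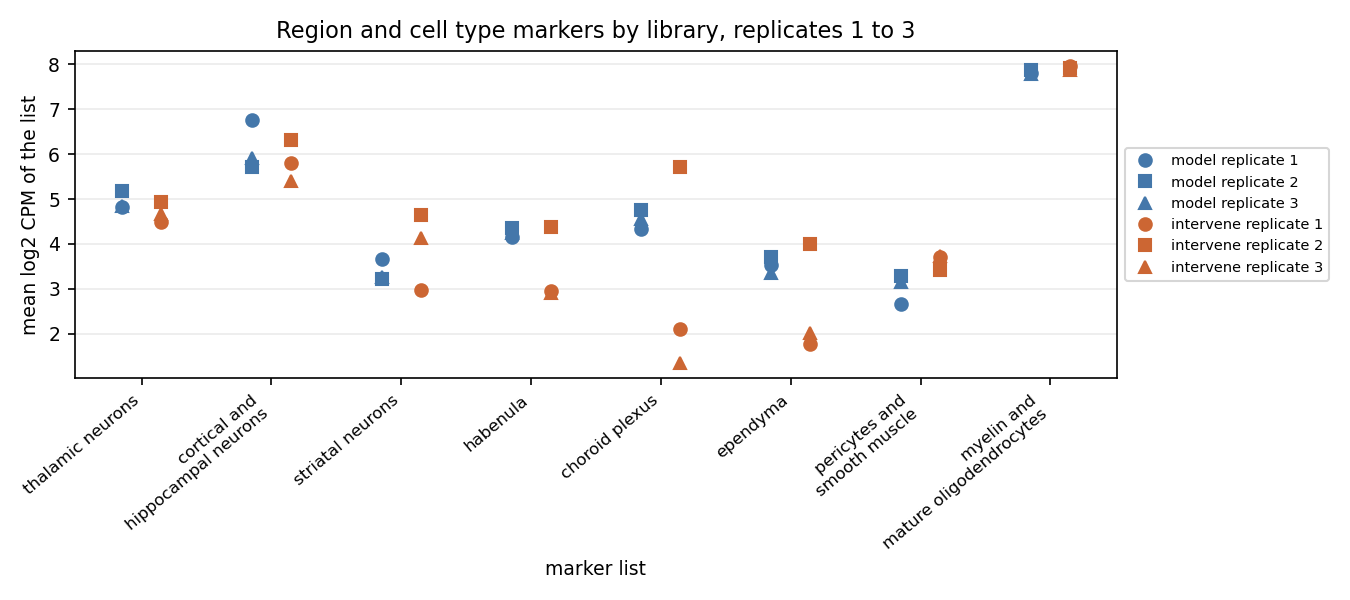
Mean log2 CPM of 8 marker lists (y axis) in each of the 6 libraries, with blue points for model, orange points for intervene and a symbol for each replicate number. Intervene replicate 2 (orange square) lies above all model libraries for choroid plexus, ependyma and habenula, where intervene replicates 1 and 3 lie below them, while the thalamic and myelin values of the groups overlap.

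In these libraries no single gene passed the test between intervene and model, while the fold changes of some gene lists lay almost wholly on one side. Immediate early genes (21 of 21) and genes responsive to glucocorticoids (17 of 18) had lower means in intervene, and interferon-stimulated genes (31 of 32) and genes of pericytes and smooth muscle (11 of 11) had higher means. Other lists were also largely on one side, among them lists of region and cell content: ependymal genes were lower in 12 of 12, erythroid genes in 5 of 5, cortical and hippocampal genes in 14 of 15 and choroid plexus genes in 12 of 14, and striatal genes were higher in 12 of 12. By edgeR's quasi-likelihood test with Benjamini-Hochberg adjustment, 0 of 18031 genes (0%) had an adjusted p under 0.05. An unadjusted p under 0.05 was reached by 298 genes that were higher (1.65%) and 200 that were lower (1.11%). Over all genes 49.5% of log2 fold changes were positive and 50.5% negative, with a median of -0.0020. In 841 genes (4.66%) all 3 intervene libraries lay above all 3 model libraries, and in 679 genes (3.77%) all lay below. The counts of gene groups given next are read against these shares. DESeq2 called 2 genes, Neat1 and Dusp1, limma-voom called 0, and edgeR without intervene replicate 2 called 50.

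Evi2a and Gem had been picked from this same comparison, so their values here are a description. Evi2a encodes a small membrane protein, and its gene lies inside an intron of Nf1 on the opposite strand. Its level was 56.4, 68.5 and 56.0 CPM in model and 84.3, 73.7 and 79.3 CPM in intervene, a log2 fold change of 0.39 ± 0.11 (SE, n = 3 per group). All intervene libraries lay above all model libraries, with intervene replicate 2 the nearest to them. Its host Nf1, the RAS regulator neurofibromin, was 74.5, 71.1 and 86.4 CPM in model and 73.6, 62.5 and 77.8 CPM in intervene (-0.12 ± 0.12). Omg, the gene of oligodendrocyte myelin glycoprotein in the same intron, was 116, 91.5 and 121 CPM against 111, 99.8 and 104 CPM (-0.06 ± 0.12). The groups overlapped for both of these neighbours. Evi2 and Evi2b, which share the locus, had too few counts to be tested, and no source used here gives the strand setting of the counting, so reads of this locus could be divided in other ways. Of the 9 tested genes in the list of this locus and RAS regulators, 8 had a negative fold change (7 without intervene replicate 2) and Evi2a the one positive.

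Gem encodes a small GTPase of the RGK family, which restrains voltage-gated calcium channels, and its transcription is switched on quickly by stimulation. It was 2.84, 2.97 and 1.85 CPM in model and 1.51, 0.978 and 1.14 CPM in intervene (log2 fold change -1.08 ± 0.31). All intervene libraries lay below all model libraries, at low levels in both groups. The other RGK genes did not share this pattern, with fold changes of 0.24 for Rem1, -0.02 for Rem2 and -0.33 for Rrad and overlapping groups for each. Among 19 RGK and calcium channel genes the median was -0.11 (-0.30 without intervene replicate 2, -0.046 without model replicate 1), and Gem was the only one whose groups did not overlap. Nat10 itself, the described target of remodelin, was 16.9, 14.5 and 15.3 CPM in model and 16.4, 14.5 and 16.1 CPM in intervene (0.01 ± 0.12). Of 18 NAT10 and RNA modification factors 12 were lower, with a median of -0.05 (-0.022 without intervene replicate 2, and -0.074 to -0.022 over the fits without 1 library).

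The gene of lowest p was Neat1, the long noncoding RNA on which nuclear paraspeckles assemble. It was 79.0, 77.7 and 66.0 CPM in model and 116, 124 and 125 CPM in intervene, so each intervene library exceeded the highest model library by a wide margin (0.71 ± 0.10, edgeR adjusted p = 1.00, DESeq2 adjusted p = 9.552e-05). Without intervene replicate 2 its fold change was 0.70, with an edgeR adjusted p of 0.0677. Dusp1, a phosphatase that switches off MAP kinases and is itself an immediate early gene, had the next lowest p. It was 22.6, 21.5 and 19.5 CPM in model against 12.98, 11.3 and 13.3 CPM in intervene (-0.76 ± 0.12, edgeR adjusted p = 1.00, DESeq2 adjusted p = 0.006585). Both genes kept these directions in each fit that left out 1 library, from 0.63 to 0.75 for Neat1 and from -0.82 to -0.69 for Dusp1.

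Vessel and myelin genes were among the other named genes with higher means. Vtn, the adhesive glycoprotein vitronectin made by brain pericytes, was 56.3, 76.9 and 70.8 CPM in model and 97.0, 103 and 104 CPM in intervene (0.58 ± 0.13). Cldn5, the tight junction claudin of brain endothelium, was 22.1, 29.4 and 21.3 CPM against 38.7, 32.8 and 40.6 CPM (0.62 ± 0.15). Pllp, the myelin protein plasmolipin, was 105, 111 and 100.1 CPM against 139, 131 and 135 CPM (0.35 ± 0.09). In each of these the groups were apart, and in Cldn5 intervene replicate 2 was the closest to model. Slc16a1, a lactate and ketone carrier, had a fold change of 0.45 ± 0.10, and Serpinb1a, an inhibitor of neutrophil proteases, 0.49 ± 0.11. Other genes named by the same rule were Cnn1 (1.40 ± 0.32), Eln, which encodes elastin (0.88 ± 0.23), and the channel gene Pkd2l1 (0.94 ± 0.24).

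Among the 10 named genes with lower means, Hspa1a, an inducible heat shock chaperone, was 14.98, 16.5 and 14.2 CPM in model and 10.6, 9.78 and 10.2 CPM in intervene (-0.58 ± 0.12). Med12, a subunit of the Mediator complex, was 18.1, 20.5 and 19.8 CPM against 14.8, 15.3 and 12.4 CPM (-0.46 ± 0.13). Snrnp70, a protein of the U1 splicing particle, was 146, 166 and 144 CPM against 113, 122 and 119 CPM (-0.36 ± 0.10). The libraries of each group lay close together in all of these genes. Cit, which encodes citron kinase, differed by -0.48 ± 0.12, Tob2, an antiproliferative factor, by -0.43 ± 0.11 and Gigyf1, a repressor of translation, by -0.38 ± 0.10. Zfhx2, Cyp4f15 and Rgs16 completed the set with -0.38 ± 0.10, -0.50 ± 0.13 and -0.64 ± 0.16. Rgs16, a regulator of G protein signalling, also belongs to the thalamic list.

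Immediate early genes had lower means in intervene throughout. All 21 listed genes were tested and 21 of 21 had a negative fold change, with a median of -0.55 against -0.0020 over all genes. In 6 of them (Arc, Nr4a1, Gem, Dusp1, Egr1 and Jund) all intervene libraries lay below all model libraries, where 3.77% of all genes did so. Gem was put into this list because of its values here; without it 20 of 20 members were lower, with a median of -0.49, and the groups were apart in 5. Arc, a regulator of synaptic receptor traffic, was 104, 58.3 and 41.2 CPM in model and 22.0, 34.1 and 19.6 CPM in intervene (-1.43 ± 0.38). Nr4a1, an orphan nuclear receptor, was 49.6, 25.9 and 18.1 CPM against 12.4, 15.9 and 12.2 CPM (-1.21 ± 0.37). Model replicate 1 was the highest library for both genes by a wide margin. Fos, a subunit of the AP-1 transcription factor, was 18.4, 22.9 and 9.68 CPM against 10.5, 6.32 and 8.02 CPM (-1.04 ± 0.33), and here the groups overlapped, because intervene replicate 1 exceeded model replicate 3. Junb, its partner, was 51.0, 40.1 and 26.2 CPM against 15.5, 28.5 and 20.8 CPM (-0.86 ± 0.30). The neuronal factor Npas4 was 7.58, 10.1 and 4.78 CPM against 4.81, 3.46 and 4.23 CPM (-0.84 ± 0.29), again with a slight overlap at model replicate 3. Egr1 was 174, 79.0 and 79.9 CPM against 74.9, 73.5 and 48.0 CPM (-0.76 ± 0.35).

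**Figure D2:**
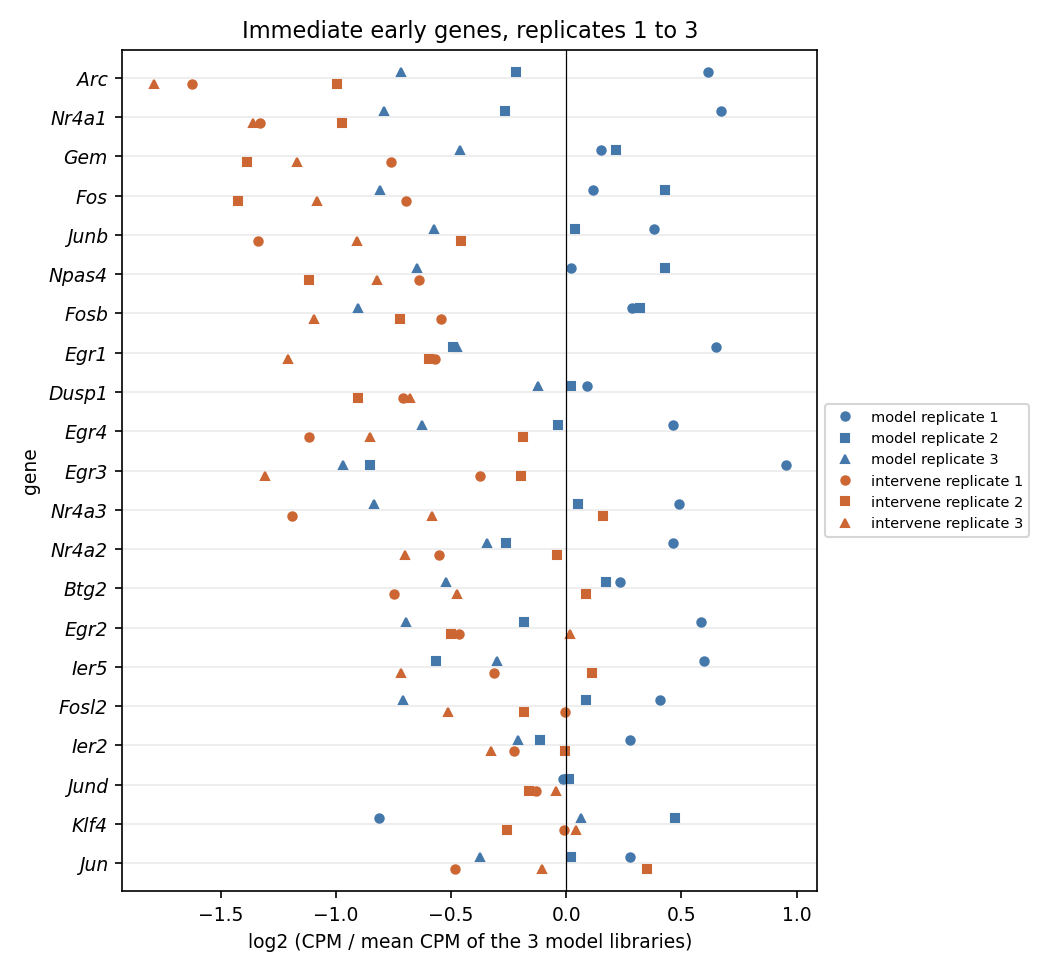
Level of each immediate early gene in each library as log2 of its CPM over the mean of the 3 model libraries (x axis), with 1 gene per row, model in blue and intervene in orange. All 21 genes have a negative fold change, but the groups are apart in 6 only, and model replicate 1 (blue circle) is the rightmost point for Arc, Nr4a1 and Egr1.

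The mean log2 CPM of this list was 4.70, 4.34 and 3.85 in model and 3.72, 3.93 and 3.63 in intervene, so model replicate 3 lay within the intervene range. Model replicate 1 weighed on the size of the difference: without it 16 of 21 members were lower and the median was -0.28, without model replicate 3 it was -0.82, and without intervene replicate 2 it was -0.72 with 20 of 21 lower. On log2(FPKM + 1) the median was -0.25. Model replicate 1 also had the highest value of the cortical and hippocampal list, 6.76 against 5.72 and 5.92 in the other model libraries and 5.80, 6.31 and 5.40 in intervene, and the part of cortical tissue in the result was not tested. In bulk tissue, fewer cells that express these genes and less RNA per cell cannot be told apart. Dusp1 is shown with its promoter because it had the lowest p in the list and holds the sequence of a cAMP response element. The promoter, 250 bases before to 50 bases after the start from RefSeq on GRCm38.p6 (chr17:26508423-26508722, minus strand), is printed 5′ to 3′ with the motif TGACGTCA in capitals.
Dusp1: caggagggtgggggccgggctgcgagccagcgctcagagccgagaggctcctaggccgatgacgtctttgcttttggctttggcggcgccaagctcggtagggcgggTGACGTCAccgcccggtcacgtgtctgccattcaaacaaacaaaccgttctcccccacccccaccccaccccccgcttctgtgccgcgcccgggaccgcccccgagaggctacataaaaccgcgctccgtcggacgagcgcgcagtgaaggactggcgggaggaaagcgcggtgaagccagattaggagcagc
The motif reads the same on both strands and was found once, 135 to 143 bases before the start. It was present in 2 of the 16 immediate early genes that have an entry in the promoter table (12.5%) and in 2.03% of all 27025 genes of that table. The CArG box of serum response elements was found in 1 of the 16 (6.25%) and in 1.81% of all genes of the table.

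Glucocorticoid-responsive genes, a list of transcripts that rise under stress hormones, also had lower means in intervene. Of 18 tested members 17 had a negative fold change, with a median of -0.29, and in 5 of them all intervene libraries lay below all model libraries. Sgk1, a kinase that controls ion transport, was 90.2, 118 and 189 CPM in model and 63.4, 82.2 and 45.2 CPM in intervene (-1.06 ± 0.32). Plin4, which coats lipid droplets, was 32.3, 20.8 and 46.4 CPM against 17.1, 7.86 and 17.0 CPM (-1.24 ± 0.39). Nfkbia, the inhibitor of NF-kB, was 22.6, 25.0 and 32.0 CPM against 15.8, 21.2 and 15.8 CPM (-0.60 ± 0.17). In these genes model replicate 3 was the highest of the 6 libraries. Per1, a clock gene under glucocorticoid control, was 48.6, 43.8 and 40.5 CPM against 31.4, 37.3 and 32.2 CPM (-0.40 ± 0.11), with the groups apart. Lcn2, a lipocalin of reactive astrocytes that the list also holds, had the one positive fold change (0.88 ± 0.67) with overlapping groups. Per2, outside this list, had -0.50 ± 0.16 with the groups apart. In the clock list, which holds Per1 and Per2, 11 of 16 genes were lower and 5 higher. Its median was -0.15 (-0.18 without intervene replicate 2), and only these 2 genes had all intervene libraries below all model libraries.

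The mean log2 CPM of the glucocorticoid list was 5.32, 5.16 and 5.61 in model and 5.09, 5.001 and 4.97 in intervene, without overlap. With 3 libraries per group, 4 of 38 lists lay all above in intervene, 1 (this list) all below, and 33 overlapped. Over all genes, 4.66% lay all above and 3.77% all below. The median of the glucocorticoid list was -0.36 without intervene replicate 2, and 13 of 18 members were lower without model replicate 3. Model replicate 3 also had the most erythroid transcripts: Hbb-bs, a beta globin, was 114, 190.3 and 311 CPM in model and 137, 131 and 130.1 CPM in intervene, and the summed level of the 8 erythroid genes was 201 to 496 CPM against 233 to 245 CPM, with none at 0. Whether blood content took part in the result was not tested. Heat shock chaperones were split, with 9 of 15 lower and a median of -0.08 (-0.061 without intervene replicate 2, and -0.14 to 0.0017 over the fits without 1 library). The groups were apart in Hspa1a, Hsp90ab1 (-0.16) and Hspa1b, which was 14.9, 9.08 and 7.47 CPM in model and 4.81, 4.60 and 7.36 CPM in intervene (-0.91 ± 0.30). Hspa1a and Hspa1b are near-identical copies, so reads could be divided between them.

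Interferon-stimulated genes had higher means in intervene. Of 32 tested members 31 had a positive fold change, with a median of 0.41, and in 15 of them all intervene libraries lay above all model libraries, where 4.66% of all genes did so. Isg15, a ubiquitin-like modifier, was 1.91, 2.09 and 1.70 CPM in model and 3.08, 3.75 and 3.25 CPM in intervene (0.82 ± 0.23). Ifit1, which binds viral RNA, was 3.45, 4.45 and 5.32 CPM against 6.67, 6.65 and 7.32 CPM (0.64 ± 0.20). Ifit3, a partner of the same family, was 9.13, 10.02 and 13.6 CPM against 15.4, 14.4 and 18.2 CPM (0.55 ± 0.18). The groups were apart in each, with model replicate 3 the nearest for both Ifit genes. Usp18, a brake on interferon signalling, was 1.36, 1.15 and 1.02 CPM against 1.94, 1.50 and 2.53 CPM (0.76 ± 0.31). Oas1a, an activator of RNase L, was 0.740, 0.337 and 0.359 CPM against 1.36, 0.945 and 0.947 CPM (1.17 ± 0.43). Most members were at a few CPM or less, so counting error takes a larger part of their spread. The transcription factors of the pathway differed among themselves, with 0.67 for Irf7, 0.19 for Irf9 and -0.02 for Stat2, the one negative member.

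**Figure D3:**
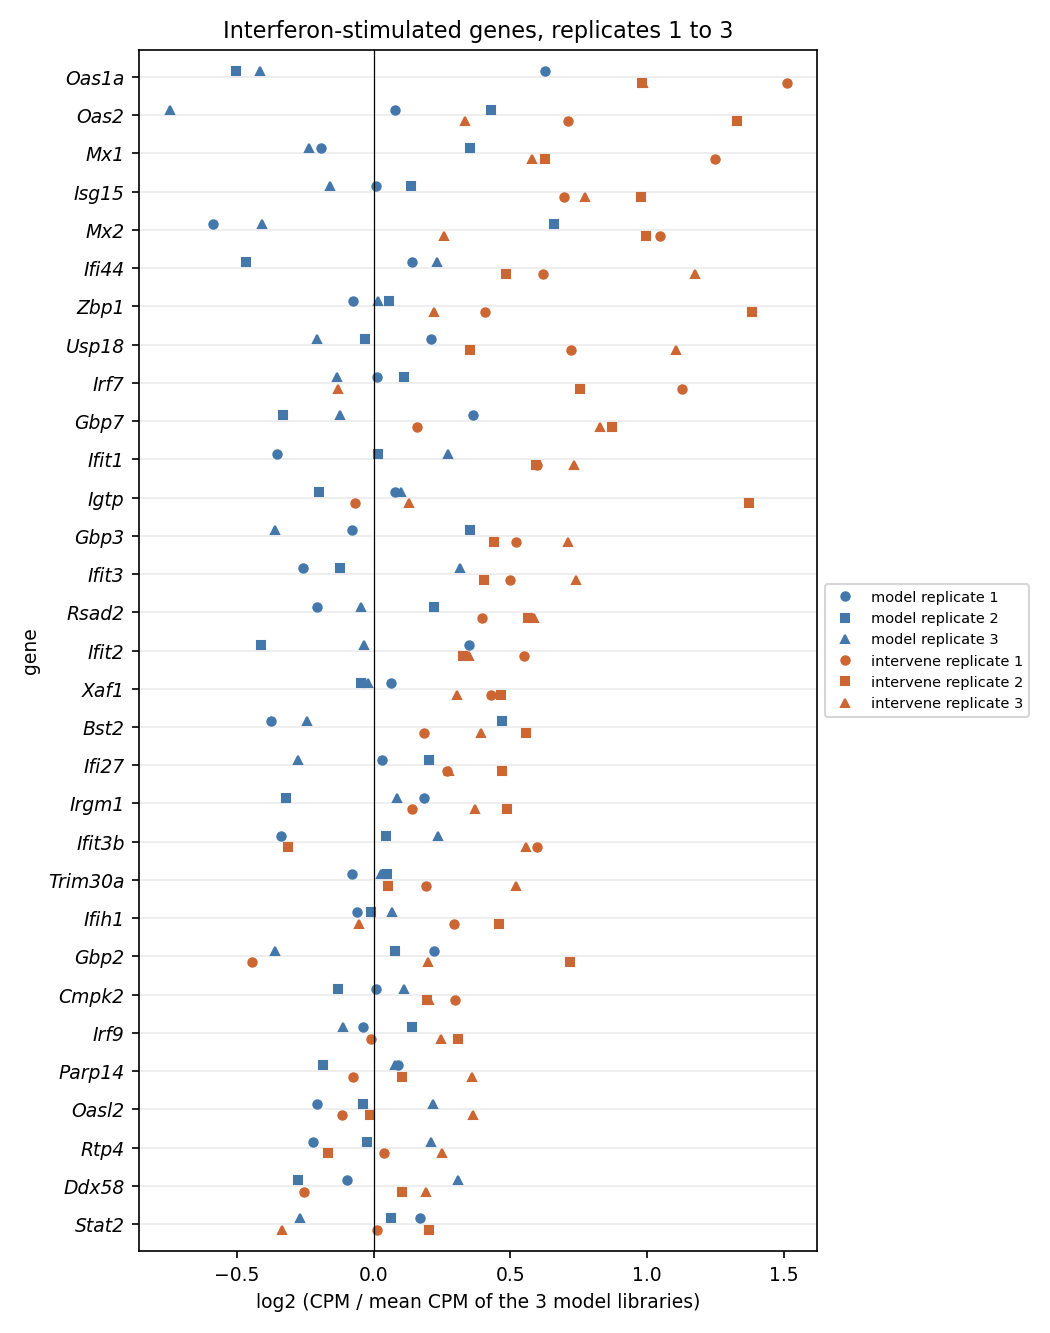
Level of 31 of the 32 interferon-stimulated genes in each library as log2 of its CPM over the mean of the 3 model libraries (x axis), with 1 gene per row, model in blue and intervene in orange. The fold change is positive in 30 of the genes shown and the groups are apart in 14, with Stat2 in the bottom row the one negative member.

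The mean log2 CPM of the interferon list was 1.70, 1.72 and 1.66 in model and 2.08, 2.20 and 2.12 in intervene, so the libraries of each group lay close together and the groups were apart. The median was 0.37 with 29 of 32 members higher without intervene replicate 2, and 0.37 to 0.48 over the fits without 1 library. On log2(FPKM + 1), a scale that shrinks the changes of low genes, it was 0.16. Markers of infiltrating neutrophils, T cells and B cells were near 0: the summed level of 14 such genes was 3 to 5.92 CPM in model and 3.08 to 7.53 CPM in intervene, and Ly6g was at 0 in all 6 libraries. Homeostatic microglial genes overlapped between the groups, with mean log2 CPM of 4.45 to 4.73 and 4.57 to 4.80 and a median fold change of 0.14 with and without intervene replicate 2. Antigen presentation genes, many of which interferon also induces, had a positive fold change in 14 of 15 with a median of 0.19 (0.36 without model replicate 3, 0.089 without model replicate 1 and 0.10 without intervene replicate 2). Psmb8, an immunoproteasome subunit, was 5.83, 6.68 and 4.96 CPM against 7.82, 7.69 and 9.72 CPM (0.53 ± 0.18), and H2-D1, a class I molecule, had 0.17 with the groups apart.

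The promoters of 3 interferon-stimulated genes whose groups were apart are printed to show the sequence many members have in common, the interferon-stimulated response element, searched on both strands as GAAA, any 2 bases and GAAA again. They come from RefSeq on GRCm38.p6, at chr4:156200769-156201068 on the minus strand for Isg15, chr19:34640639-34640938 on the plus strand for Ifit1 and chr19:34583279-34583578 on the plus strand for Ifit3. Each runs 5′ to 3′ along its gene, and capitals mark the matches, which overlap in Isg15.
Isg15: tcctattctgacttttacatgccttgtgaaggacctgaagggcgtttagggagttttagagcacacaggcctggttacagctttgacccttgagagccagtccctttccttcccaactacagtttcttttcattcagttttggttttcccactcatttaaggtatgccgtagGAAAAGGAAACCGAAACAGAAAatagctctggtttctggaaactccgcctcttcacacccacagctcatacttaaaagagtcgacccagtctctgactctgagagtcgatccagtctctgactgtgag
Ifit1: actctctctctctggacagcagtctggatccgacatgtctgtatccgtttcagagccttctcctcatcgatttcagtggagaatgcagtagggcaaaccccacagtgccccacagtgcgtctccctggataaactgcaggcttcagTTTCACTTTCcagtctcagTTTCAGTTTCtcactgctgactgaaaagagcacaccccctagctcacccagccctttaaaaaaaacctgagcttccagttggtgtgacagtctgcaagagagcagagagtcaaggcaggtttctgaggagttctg
Ifit3: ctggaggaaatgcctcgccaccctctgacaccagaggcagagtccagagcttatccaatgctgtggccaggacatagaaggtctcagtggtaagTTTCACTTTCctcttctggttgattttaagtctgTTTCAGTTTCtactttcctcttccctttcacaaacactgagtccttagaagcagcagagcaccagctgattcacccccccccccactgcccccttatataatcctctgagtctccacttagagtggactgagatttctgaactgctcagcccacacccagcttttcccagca
The element lay 56 to 78 bases before the start of Isg15, 75 to 104 bases before that of Ifit1 and 112 to 156 bases before that of Ifit3, where both Ifit genes hold 2 matches. It was present in 16 of the 23 interferon-stimulated genes that have an entry in the table (69.6%), in 2 of 16 immediate early genes (12.5%) and in 3.99% of all 27025 genes of the table. The coordinates refer to GRCm38.p6, whereas the counts were made on GRCm39 per the submitters' processing notes.

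Genes of the vessel wall had higher means as well. All 11 tested genes of pericytes and smooth muscle had a positive fold change, with a median of 0.51, and in 6 all intervene libraries lay above all model libraries; Tagln, the 12th listed gene, had too few counts to be tested. Acta2, smooth muscle actin, was 9.31, 14.98 and 16.4 CPM in model and 20.01, 22.5 and 30.4 CPM in intervene (0.84 ± 0.24). Cnn1, the contractile regulator calponin, was 0.678, 0.810 and 0.867 CPM against 2.76, 1.63 and 1.86 CPM (1.40 ± 0.32). Des, the muscle intermediate filament desmin, was 1.29, 2.90 and 2.09 CPM against 3.51, 3.78 and 4.23 CPM (0.88 ± 0.31). Among other members, Vtn had the 0.58 given above, Rgs5 0.25, Kcnj8 0.24, Abcc9 0.18 and the growth factor receptor gene Pdgfrb 0.17. The mean log2 CPM of the list was 2.66, 3.27 and 3.15 in model and 3.70, 3.43 and 3.72 in intervene, with the lowest value in model replicate 1. Without that library the median was 0.29, without intervene replicate 2 it was 0.57, and 11 of 11 members stayed positive in each fit that left out 1 library.

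Endothelial genes followed in part, with 11 of 15 positive and a median of 0.26. Cldn5, Pecam1 and Cdh5 were the 3 whose groups did not overlap, and Pecam1, an adhesion molecule of endothelial junctions, was 9.40, 12.3 and 12.1 CPM against 14.0, 14.6 and 14.1 CPM (0.33 ± 0.14). Itm2a, a membrane protein enriched in brain endothelium, was 24.9, 32.1 and 26.8 CPM against 47.8, 32.1 and 46.2 CPM (0.59 ± 0.17), so intervene replicate 2 was level with model replicate 2. The transporters Mfsd2a (-0.35) and Slc2a1 (-0.19) had negative fold changes with overlapping groups. The mean log2 CPM of the endothelial list overlapped between the groups, at 3.87 to 4.42 and 4.27 to 4.50, and the median was 0.32 without intervene replicate 2 and 0.13 without model replicate 1.

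Collagen and fibroblast genes had a positive fold change in 13 of 16 members, with a median of 0.39, and in 5 of them the groups were apart. Col3a1, a fibrillar collagen chain of vessel walls and meninges, was 2.47, 4.35 and 4.21 CPM in model and 6.89, 6.19 and 7.58 CPM in intervene (0.90 ± 0.25). Col1a1, another fibrillar chain, was 6.17, 9.78 and 10.4 CPM against 10.5, 15.8 and 13.1 CPM (0.58 ± 0.23), where model replicate 3 and intervene replicate 1 nearly met. The fibroblast proteoglycan Dcn was 19.2, 23.8 and 29.8 CPM against 29.8, 37.2 and 34.6 CPM (0.48 ± 0.17), with the same 2 libraries almost level. The chains of basement membrane collagen did not share this, with -0.00 for Col4a1 and -0.11 for Col4a2 and overlapping groups. The median of the list was 0.27 without intervene replicate 2, 0.18 without model replicate 1, and 0.15 on log2(FPKM + 1). Matrix proteases and their inhibitors had 16 of 19 positive and a median of 0.19 (0.15 without intervene replicate 2, 0.11 without model replicate 1, 0.09 without intervene replicate 3 and 0.06 on log2(FPKM + 1)). Their mean log2 CPM, 3.25 to 3.33 in model and 3.39 to 3.64 in intervene, did not overlap.

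Myelin genes were split. Of 20 tested genes 13 had a positive fold change, with a median of 0.10 (0.17 without intervene replicate 2, 0.065 without model replicate 1), and in 6 the groups were apart: Evi2a, Aspa, Trf, Opalin, Mag and Cnp. Evi2a was put into this list because of its values here; without it 12 of 19 were positive and the groups were apart in 5. Aspa, which breaks down N-acetylaspartate in oligodendrocytes, was 32.5, 28.2 and 29.6 CPM against 38.2, 35.2 and 41.1 CPM (0.34 ± 0.11), and Trf, transferrin, was 557, 635 and 521 CPM against 782, 685 and 696 CPM (0.34 ± 0.12). The myelin proteins Mbp (0.06), Mog (-0.01) and Mal (-0.12) had overlapping groups. Their mean log2 CPM overlapped too, at 7.79 to 7.88 in model and 7.87 to 7.97 in intervene. Of the 2 water and ion transport genes of astrocytes whose groups were apart, Aqp4 was 139.4, 151.5 and 139.9 CPM against 206, 151.8 and 183 CPM (0.33 ± 0.12), with intervene replicate 2 at the level of model replicate 2, and Slc4a4 had 0.32 ± 0.11. Homeostatic astrocyte genes as a list had 7 of 15 positive and a median of -0.03 (0.065 without intervene replicate 2).

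Genes of glial reaction and inflammation, the subject of the series, had wide spread within groups, and the share of positive fold changes differed between lists. Of 20 reactive astrocyte genes 16 were higher, with a median of 0.34 (0.32 without intervene replicate 2, 0.18 without intervene replicate 3, 0.51 without model replicate 1). Aspg was the only one whose groups were apart, with intervene replicate 2 (2.999 CPM) and model replicate 2 (2.969 CPM) almost level. Timp1, a protease inhibitor, was 1.29, 0.472 and 0.538 CPM against 1.11, 1.70 and 2.71 CPM (1.26 ± 0.50), and Cd44, a matrix receptor, was 4.56, 3.44 and 3.47 CPM against 5.59, 3.98 and 9.47 CPM (0.73 ± 0.32). In both, 1 intervene library lay within the model range. Of 19 reactive microglia genes 16 were positive with a median of 0.19 (0.13 without intervene replicate 2, 0.55 without model replicate 1, 0.11 without model replicate 2) and 0 had groups apart; Spp1, osteopontin, was 19.8, 29.9 and 45.1 CPM against 140.25, 30.1 and 56.5 CPM (1.26 ± 0.60), its mean set by intervene replicate 1. Cytokines and chemokines had 8 of 12 tested genes positive and a median of 0.07 (5 of 12 and -0.02 without intervene replicate 2, 0.23 without model replicate 2), and 8 of the 20 listed had too few counts. Cxcl10, an interferon-induced chemokine, was 1.66, 0.0675 and 0.598 CPM against 0.645, 3.59 and 1.89 CPM (1.38 ± 0.96), and Il18 was lower with the groups apart (-0.22 ± 0.10). In the lists of NF-kB and Toll-like receptor, complement and inflammasome genes, 13 of 23, 13 of 20 and 7 of 11 tested genes were positive. Over all genes 49.5% were. Without intervene replicate 2 the positive genes numbered 10, 11 and 6. The medians of these 3 lists were 0.04, 0.10 and 0.12, with overlapping groups. Without intervene replicate 2 these medians were -0.021, 0.10 and 0.021. Over the fits without 1 library they ranged from -0.068 to 0.062, from -0.0069 to 0.21 and from -0.0079 to 0.18. Of single genes there, the groups were apart for Tlr3, a sensor of double-stranded RNA (0.38 ± 0.16), and Casp4, an inflammatory caspase (1.09 ± 0.51).

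Region markers varied among the libraries of a group. Thalamic genes, which the choice of libraries used, had mean log2 CPM of 4.83, 5.18 and 4.85 in model and 4.50, 4.94 and 4.68 in intervene, with 14 of 18 lower and a median of -0.18 (-0.21 without intervene replicate 2, -0.046 without model replicate 2). Striatal genes had a positive fold change in 12 of 12 with a median of 0.61, but their values overlapped, at 3.65, 3.22 and 3.26 against 2.98, 4.63 and 4.13, and without intervene replicate 2 these became 8 of 12 and 0.26. Adora2a, the adenosine receptor of striatal projection neurons, was 4.87, 1.89 and 1.32 CPM against 1.94, 14.5 and 6.79 CPM. Cortical and hippocampal genes were lower in 14 of 15 with a median of -0.32 (-0.71 without intervene replicate 2, 0.02 and 7 of 15 without model replicate 1). Hypothalamic genes separated intervene replicate 3, with 0.871, 0.247 and 4.68 in intervene against 3.20, 3.12 and 4.07 in model; the median fold change was -0.38, and 0.043 without intervene replicate 2. Pomc, a hypothalamic peptide precursor, was 9.61, 3.29 and 49.5 CPM in intervene and 2.28, 4.05 and 3.77 CPM in model. No region list had groups that were apart, and how much the region content of single libraries adds to the differences of the other lists was not tested.

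Without intervene replicate 2, edgeR compared intervene replicates 1 and 3 with the model libraries. It called 50 genes at an adjusted p under 0.05, and all 50 fell. Choroid plexus, ependymal and habenula values had singled out intervene replicate 2, so calls among those genes are a description. The 50 included 9 of 14 choroid plexus, 7 of 12 ependymal and 3 of 10 habenula genes, and Enpp2, 1 of 20 myelin genes. Zic1, 1 of 18 thalamic genes, was also among them, but the choice of libraries used that list, so its value is a description. Of the 50 genes 21 were in the lists and 29 in none, where the lists held 581 of the 18031 genes tested with all 6 libraries. Prlr, the prolactin receptor, abundant in choroid plexus, was 16.7, 20.5 and 19.1 CPM in model and 6.02, 22.2 and 8.65 CPM in intervene, a fold change of -0.61 ± 0.46 with all libraries and -1.35 (edgeR adjusted p = 0.0410) without intervene replicate 2. The median of the choroid plexus list moved from -0.27 to -2.67, that of ependyma from -0.60 to -1.73 and that of habenula from -0.66 to -1.40. Without intervene replicate 3 the choroid plexus median was 0.26 and the habenula median -0.34, and without intervene replicate 1 the ependymal median was -0.21. The number of genes with an unadjusted p under 0.05 was 1700 without this library and 309 to 631 without any other 1. Without intervene replicate 3, 1 gene fell, the hypothalamic peptide gene Oxt.

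The libraries numbered 4 to 6 share no sample with those above, and the values of intervene against model there stand beside them. In 17814 genes tested there, 598 rose (3.36%) and 401 fell (2.25%); with library totals in place of TMM these were 391 and 518. The number called ranged from 100 without model replicate 4 to 1430 without intervene replicate 4. Across 17254 genes tested in both sets the log2 fold changes had a Pearson r of -0.0748 and a Spearman rho of -0.0895, as a description over genes that share libraries. Of 470 genes with an unadjusted p under 0.05 in libraries 1 to 3, 40.6% had the same sign in libraries 4 to 6, against 45.5% of all genes. Marker lists differed there too, with a choroid plexus median of 2.98 and a thalamic median of 1.20. The choice of libraries used thalamic genes, so the thalamic value is a description without a test. Myelin genes had a positive fold change in 19 of 20, with a median of 0.52, and 7 were called higher; without Evi2a these were 18 of 19, 0.52 and 6.

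Evi2a, 1 of those 7 myelin genes, rose in libraries 4 to 6 as well, from 31.3 ± 2.12 CPM in model to 48.0 ± 1.43 CPM in intervene (SD, n = 3; log2 fold change 0.62 ± 0.10, edgeR adjusted p = 0.0126). The adjusted p was 0.0770 without model replicate 4 and 0.0120 to 0.0414 without any other 1 of these libraries. Gem went the other way and rose, from 2.50 ± 0.719 to 5.68 ± 1.30 CPM (1.19, edgeR adjusted p = 0.0371). That call was lost in 5 of the 6 fits that left out a library, with adjusted p of 0.0511 to 0.136, and held without intervene replicate 6 (0.0329); it was also lost with library totals (0.0542). Serpinb1a (0.89), Ifit1 (1.26) and the myelin genes Pllp (0.56) and Trf (0.56) also rose in libraries 4 to 6, in the direction of their values in libraries 1 to 3. Med12 (0.61), Fos (1.08) and Hbb-bs (1.28) rose there against lower means in libraries 1 to 3. Neat1 had 0.63 (edgeR adjusted p = 0.158) and Dusp1 0.67 (edgeR adjusted p = 0.229) in libraries 4 to 6. Saline libraries 1 to 3 and 4 to 6 averaged 62.3 and 24.1 CPM for Evi2a and 668 and 230 CPM for Trf. For Pllp these were 104 and 54.5 CPM, for Serpinb1a 16.8 and 5.46 CPM and for Ifit1 3.01 and 3.93 CPM. The thalamic gene Tcf7l2 averaged 7.78 CPM in model 4 to 6 and 39.3 CPM in intervene 4 to 6. Whether region content took part in the rises in libraries 4 to 6 was not tested.

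**Figure D4:**
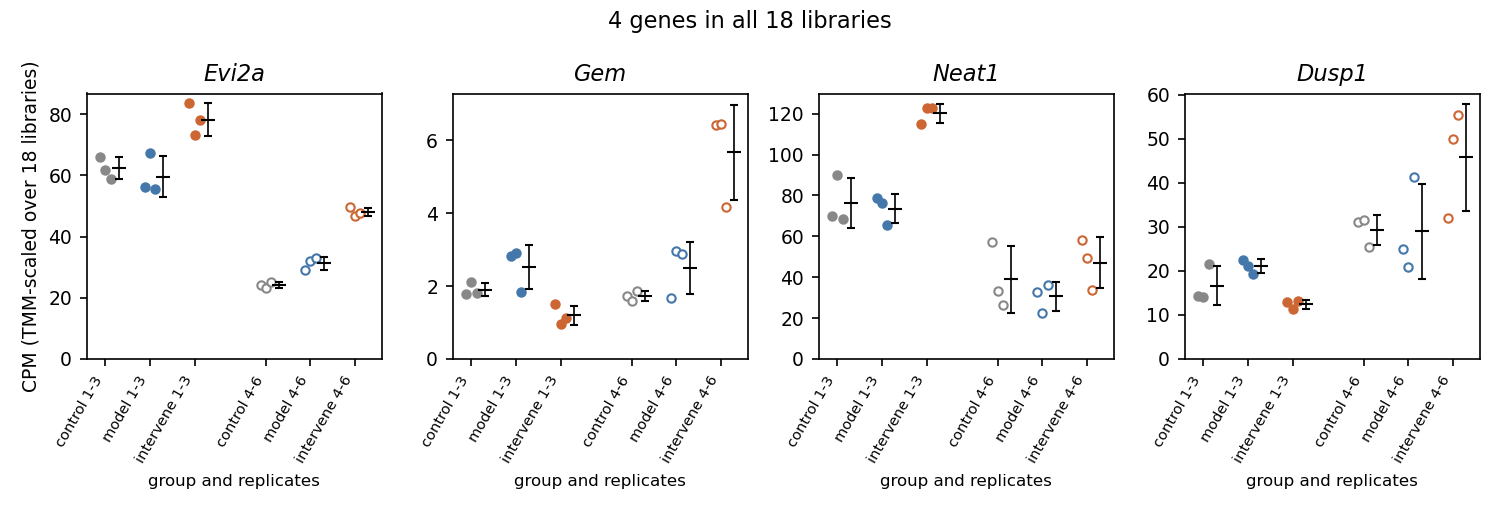
CPM of Evi2a, Gem, Neat1 and Dusp1 (y axis, from 0) in all 18 libraries by group and replicate set, with filled points for replicates 1 to 3, open points for replicates 4 to 6, and black bars for the mean and SD of 3 libraries. Evi2a and Neat1 are higher in intervene than in model on average in both sets, while Gem and Dusp1 are lower in intervene 1 to 3 and higher on average in intervene 4 to 6.

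A test of the difference between the sets called 51 genes with a more positive change in libraries 4 to 6 (0.261% of 19513) and 14 with a more negative one (0.0717%), from 2 calls in all without model replicate 2 or 4 to 567 without intervene replicate 2. For immediate early genes the median was 0.39 in libraries 4 to 6 with 18 of 21 positive, where 50.2% of all genes were, and 1 member, Gem, was called in that test (2.26, edgeR adjusted p = 0.0274), to which its choice from libraries 1 to 3 contributes. That call was lost without model replicate 2 or 4 or intervene replicate 3 or 5, with adjusted p of 0.0579 to 0.0966. Without Gem the immediate early median in libraries 4 to 6 was 0.36 with 17 of 20 positive. For interferon-stimulated genes the median was 0.55 with 27 of 32 positive, 3 of them called, and 0 members were called in the test of the difference. For pericytes and smooth muscle it was -0.12 with 4 of 11 positive, for collagen and fibroblast genes -0.11 with 6 of 16 positive, and for glucocorticoid-responsive genes -0.09 with 6 of 18 positive; 0 members of these lists were called in the test of the difference.

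**Figure D5:**
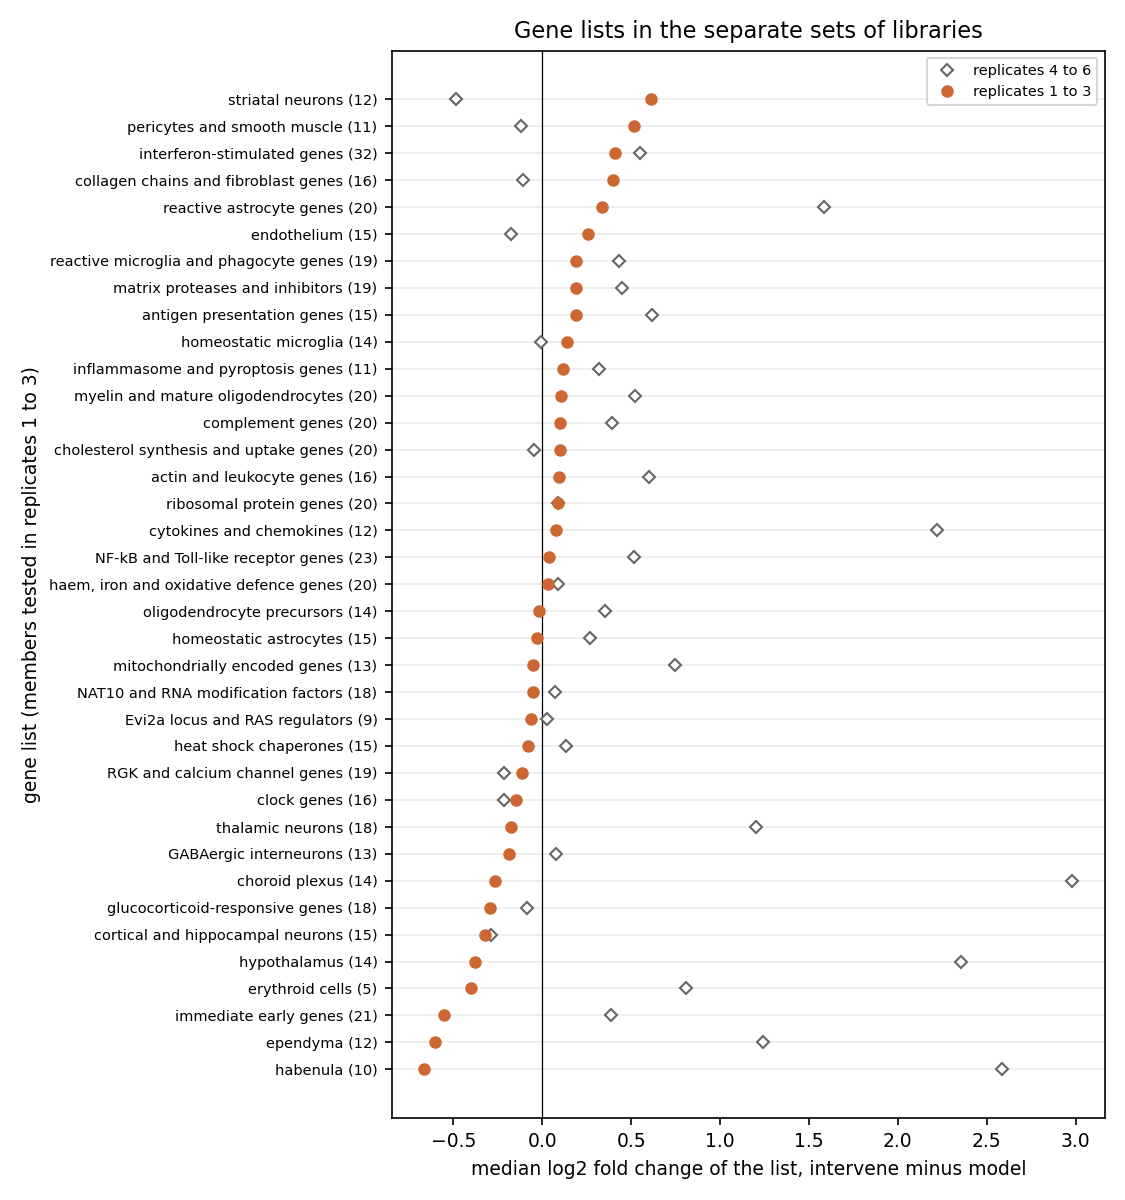
Median log2 fold change of intervene over model (x axis) for 37 gene lists with at least 5 tested members, ordered by the value in replicates 1 to 3 (filled circles), with the value in replicates 4 to 6 as open diamonds. The interferon median is 0.41 and 0.55 in the separate sets, while the immediate early median is -0.55 and 0.39 and the choroid plexus median -0.27 and 2.98.

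Against saline controls with the same numbers, a comparison that shares its model libraries with the one above, edgeR called 0 of 19513 genes (0%) in model, with 1131 at an unadjusted p under 0.05 (5.8%). The values are given side by side only. Immediate early genes had a median of 0.28 in model over control and -0.55 in intervene over model, interferon-stimulated genes 0.10 and 0.41, glucocorticoid-responsive genes 0.16 and -0.29, and pericytes and smooth muscle 0.05 and 0.51. Without 1 control or model library the model over control medians of these 4 lists ranged from -0.0042 to 0.57, from -0.032 to 0.23, from -0.039 to 0.30 and from -0.13 to 0.33, so each took both signs. The striatal median of -1.60 in model over control rested on control replicate 1, and was 0.15 without that library. On the scale of all 18 libraries, Gem averaged 1.90 ± 0.182 CPM in the saline libraries, 2.53 ± 0.598 in those of model and 1.19 ± 0.272 in those given remodelin (SD, n = 3). Evi2a averaged 62.3 ± 3.56, 59.7 ± 6.63 and 78.3 ± 5.33 CPM in the same order, and Neat1 and Dusp1 had model over control fold changes of -0.05 and 0.34.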

How the data were processed

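The authors deposited raw counts and FPKM per gene for 18 mouse libraries. The submitters' processing notes name HISAT2, featureCounts and GRCm39, without versions. Deposited FPKM equalled count over length and total in 19845 of 19845 genes counted in all 6 libraries (relative tolerance 1e-06) and was used only as an alternative.

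Counts of the 6 libraries were tested with edgeR 4.0.16 (R 4.3.3; limma 3.58.1 and DESeq2 1.42.0 as alternatives): filterByExpr, TMM, robust quasi-likelihood F test, Benjamini-Hochberg over all genes tested, threshold 0.05, no covariate. The difference between sets was fitted on all 18 libraries with 6 means. Scripts were tested on simulated data. A list's value is the mean log2 CPM of its tested members (prior count 2). Of 613 genes in 38 lists, 612 were found, 14 by synonym, and 581 tested. The members and lists were chosen with earlier results of these data known; Evi2a and Gem were put into lists on that basis. Named genes are Nat10, Evi2a, Gem, up to 10 of lowest p per direction with a mean of at least 1 CPM, and up to 3 per list by p; region markers, Nf1, Omg, members named by their place in a list and genes called in few cases were added after their values were seen.

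Replicate numbers do not pair these libraries: same-number deviations correlated by -0.207, -0.0065 and 0.12. No 2 of the 6 libraries agreed within sampling noise (chi-square per degree of freedom at least 25.3 over 15 pairs). Fits of model against control without 1 library, and lists without Gem or Evi2a, were added after the values were seen. A few genes of the lists are counted but not reported by name here.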

Additional observations from a re-analysis of the deposited data

Results flagged for a closer look

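For Gem and Med12 the change of intervene against model differed between libraries 4 to 6 and 1 to 3 by the test of that difference, by 2.26 and 1.07 on the log2 scale, each with an edgeR adjusted p of 0.0274. Both genes had been named for their values in libraries 1 to 3, which enter that difference. For Gem the call was lost without model replicate 2 or 4 or intervene replicate 3 or 5, with adjusted p of 0.0579 to 0.0966.

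In Itm2a, Hspa1b and Tac2 the libraries of the groups lay apart in opposite directions in the separate sets, and the difference did not pass the test. Their log2 fold changes were 0.59, -0.91 and -1.18 in libraries 1 to 3 and -0.56, 0.45 and 1.87 in libraries 4 to 6, with adjusted p of the difference of 0.0820, 0.148 and 0.0675. For Itm2a the groups are apart in libraries 1 to 3 only when all 18 libraries are scaled together.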

How the results depend on the processing

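The comparison rests on 3 libraries per group at 29277921 to 33773652 counts; genes near 1 CPM, among them Cnn1, Isg15 and Gem, carry more counting error. The number of genes called was 2 with DESeq2, 0 to 50 without 1 library and 0 under every other alternative run (scaling, filter, limma, FPKM, weights and all 18 libraries). The replicate number as a block gave 0 calls, with 339 genes at an unadjusted p under 0.05 against 498 without it, and 1 of 6 libraries correlated best with its own number. In libraries 4 to 6 the 999 calls ranged from 100 to 1430 without 1 library and were 1380 with the block. The 65 calls for the difference between sets were 14 with library totals and 2 to 567 without 1 library. Of 1324 values of named genes under 17 alternatives, 1308 kept direction and side of the threshold and 3 passed it (Neat1 and Dusp1 in DESeq2, Prlr without intervene replicate 2). The 13 that reversed did so without 1 library: Nat10 ranged from -0.037 to 0.067, Stat2 from -0.15 to 0.11, Tcf7l2 from -0.40 to 0.39, Slc17a7 from -0.65 to 0.15, Ttr from -3.78 to 0.29 and Omg from -0.18 to 0.015; the cause was not tested. Of 646 list medians 21 moved by more than the spread between replicates. Scaling shifted the median of all genes by at most 0.0117.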
